A study of Mus musculus with 16 samples.

Results

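The proteasome subunit genes are the 31 genes of the constitutive mouse proteasome that code for the 20S core (Psma1 to Psma7 and Psmb1 to Psmb7, 14 genes) and for most of the 19S cap (Psmc1 to Psmc6 and 11 Psmd genes, 17 genes). They were chosen by gene symbol. Each of the 31 symbols matched 1 of the 46603 gene IDs of the count table, and each passed the filter on low counts, which left 17055 genes. Psmd11 was already known to have one of the smallest p-values between beta-sitosterol and vehicle at 1 h when the family was taken up. The treatment values at 1 h, their mean with those at 6 h and the difference between both times are therefore given as descriptions. No test is read from them. The same holds for Psmd11 between 6 h and 1 h, which uses its known 1 h values.

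Messenger RNA of the hippocampus was sequenced in wild-type C57BL/6 mice, an inbred strain, with 4 mice in each of 4 groups and no transgene in any of them. Beta-sitosterol, a sterol of plants that resembles cholesterol, was given by intraperitoneal injection at 100 mg/kg. The groups were beta-sitosterol mice at 6 h after injection (numbers 17 to 20), vehicle mice at 6 h (11 to 14), beta-sitosterol mice at 1 h (6 to 9) and vehicle mice at 1 h (2 to 5). The comparisons ask whether the sterol altered hippocampal transcripts at either time. The labels state neither the age nor the sex of the mice.

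The proteasome is the main protease of the cytosol and nucleus, and it degrades proteins tagged with ubiquitin chains. Its core is a barrel of alpha and beta rings with the active sites inside the beta rings, and the cap recognises ubiquitin, removes it, unfolds the substrate and threads it through the alpha ring. In neurons proteasomes take part in protein turnover at synapses, and mammalian cells are known to raise many subunit genes together through the transcription factor Nfe2l1 when proteasome activity is blocked.

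Promoter sequences are shown for the catalytic subunits Psmb5 and Psmb6, whose windows hold the core of an antioxidant response element, the kind of site that Nfe2l1 and its relative Nfe2l2 bind, and for Psmd11, whose window holds none. Each is the 250 bases before the RefSeq start on GRCm38.p6, read 5′ to 3′ on the gene's strand. Capitals mark a match to TGACNNNGC. The windows are chr14:54617996-54618245 on the minus strand, chr11:70525107-70525356 on the plus strand and chr11:80428365-80428614 on the plus strand.
Psmb5: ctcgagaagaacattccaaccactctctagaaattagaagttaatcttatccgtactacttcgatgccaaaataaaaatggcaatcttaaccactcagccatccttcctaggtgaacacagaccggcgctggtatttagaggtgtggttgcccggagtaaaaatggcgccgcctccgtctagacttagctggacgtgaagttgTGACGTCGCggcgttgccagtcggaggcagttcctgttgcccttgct
Psmb6: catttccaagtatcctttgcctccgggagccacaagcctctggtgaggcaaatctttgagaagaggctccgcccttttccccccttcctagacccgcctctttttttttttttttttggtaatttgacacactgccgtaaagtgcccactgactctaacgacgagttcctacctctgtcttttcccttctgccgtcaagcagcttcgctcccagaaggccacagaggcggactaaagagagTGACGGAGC
Psmd11: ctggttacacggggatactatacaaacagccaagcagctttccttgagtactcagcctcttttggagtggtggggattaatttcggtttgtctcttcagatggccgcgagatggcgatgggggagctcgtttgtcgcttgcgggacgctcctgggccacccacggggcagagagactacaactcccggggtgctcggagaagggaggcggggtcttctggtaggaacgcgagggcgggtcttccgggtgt
The match began 47 bases upstream of the start in Psmb5 and 9 bases upstream in Psmb6. Windows were at hand for 25 of the 31 members, as 27 windows. TGACNNNGC, searched on both strands, was in 4 of them (14.8%), those of Psmb5, Psmb6, Psmc6 and Psmd12, against 10.2% of the 32851 windows of all genes. CCAAT, searched on both strands, was in 10 of the 27 windows (37.0%), against 33.9% of all windows. A match describes letters in a window and is not a site of binding.

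The libraries held 24815581 to 31266644 counted reads. Each member had between 945 reads (Psmb3) and 6181 reads (Psmd2) in a library, so counting error adds to the spread between mice. The 7 markers of hippocampal neurons were present in every group, with a mean of 153 CPM (counts scaled to library size, TMM-normalized) for Prox1 of dentate granule cells and 5527 CPM for Camk2a. Choroid plexus transcripts varied widely within groups, with Ttr from 45.8 to 6136 CPM. Bulk tissue does not tell fewer cells of a type from less RNA per cell. Mouse 9 of the beta-sitosterol 1 h group stood apart in the proteasome genes, and results that rest on it are given with and without it.

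Proteasome subunits were abundant. Levels per length, given as CPM per kb of principal transcript, had a median of 53.0 over the 31 members, against 5.69 over all genes tested, which placed the members' median at percentile 92.8. They ranged from 19.7 ± 1.28 for the lid subunit Psmd11 to 92.9 ± 7.70 CPM per kb for the catalytic subunit Psmb6 (SD, n = 16 mice). The ATPases Psmc5 and Psmc3 followed with levels of 92.1 and 85.4 CPM per kb, and the beta subunit Psmb4 with 81.6. The level of Psmb6 exceeded that of Psmc5 by less than the SD of either. At the low end stood the alpha subunits Psma2 and Psma3 (23.8 and 29.5 CPM per kb), the ATPase Psmc6 (30.1) and the lid subunit Psmd12 (30.5). A level per kb depends on the transcript taken as principal. Psma2, Psmd11 and Psma3 have long ones of 2911, 2848 and 2846 bases. Psmd11 also has a near-identical copy, described below, with counts equal to 22.6% of its own. Its place as the lowest leaves those counts out. The median over subunits was 55.9 CPM per kb in the alpha ring, 57.9 in the beta ring, 61.8 in the ATPases and 48.6 in the non-ATPases.

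**Figure D1:**
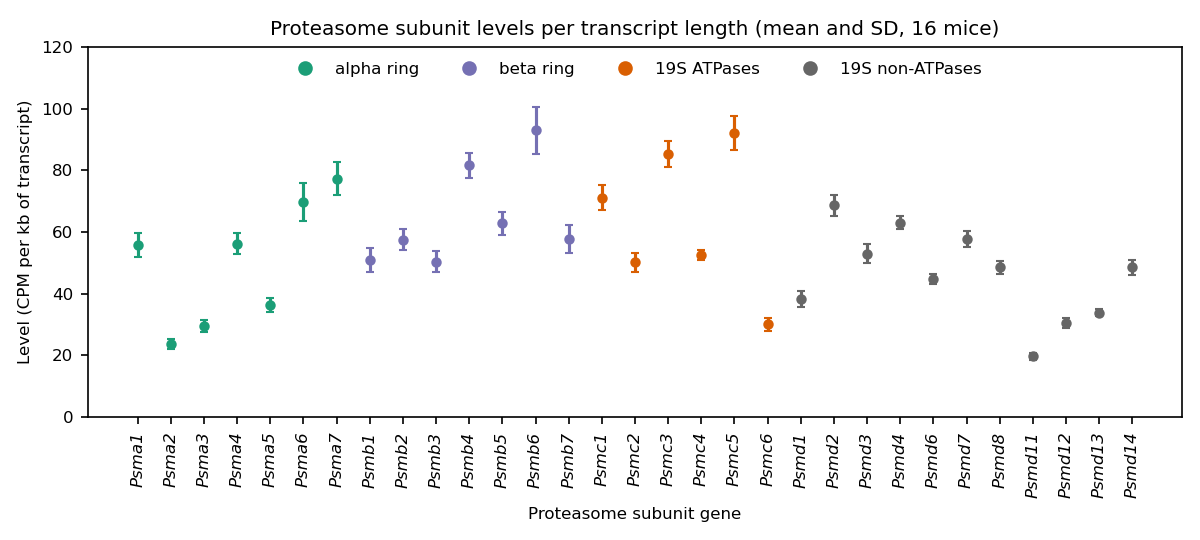
Level of each proteasome subunit gene in CPM per kb of principal transcript (points, mean over 16 mice; bars, SD), with colours for the alpha ring, beta ring, 19S ATPases and 19S non-ATPases. Psmb6 and Psmc5 stood highest at 92.9 and 92.1, and Psmd11, without the counts of its near-identical copy, lowest at 19.7.

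The levels varied little between mice. The coefficient of variation over the 16 mice had a median of 6.05% over the members, against 6.54% over the 4522 genes whose mean CPM lay in the members' range and 9.98% over all genes tested. It was lowest in the ATPase Psmc4 (3.15%) and the ubiquitin receptor Psmd4 (3.21%), and highest in the alpha subunit Psma6 (8.77%) and in Psmb6 (8.28%). Core genes varied more than cap genes, with medians of 6.73% and 5.04%. Without mouse 9 the medians were 5.03% for the core, 3.53% for the cap and 4.50% for all members.

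Mouse 9, treated with beta-sitosterol and taken at 1 h, had the highest level of all 16 mice in 28 of the 31 members. This held for 14 of 14 core genes and 14 of 17 cap genes, the exceptions being Psmd1, Psmd3 and Psmd11. Psma6 had 89.5 CPM in mouse 9, against 69.6 to 71.5 CPM in the other 3 mice of its group. The fold of mouse 9 over the mean of those 3 mice had a median of 1.16 over the members, 1.22 over the core and 1.14 over the cap, and lay between 1.01 (Psmd11) and 1.26 (Psma6). Of all genes tested 13.8% had their highest value in mouse 9, and so had 22.7% of the genes in the members' range of CPM. Among the 1608 genes that also lay in the members' range of transcript length the share was 41.8%. Vehicle 1 h mouse 3 was highest in 15.1% of all genes and in no member, but mouse 9 left few members in which it could be. The mean deviation of log2 CPM from the 16-mouse mean over the core was 0.098 in mouse 3, second to 0.238 in mouse 9. Vehicle 1 h mouse 4 came next with 0.060. Over the cap it was -0.030 in mouse 3.

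**Figure D2:**
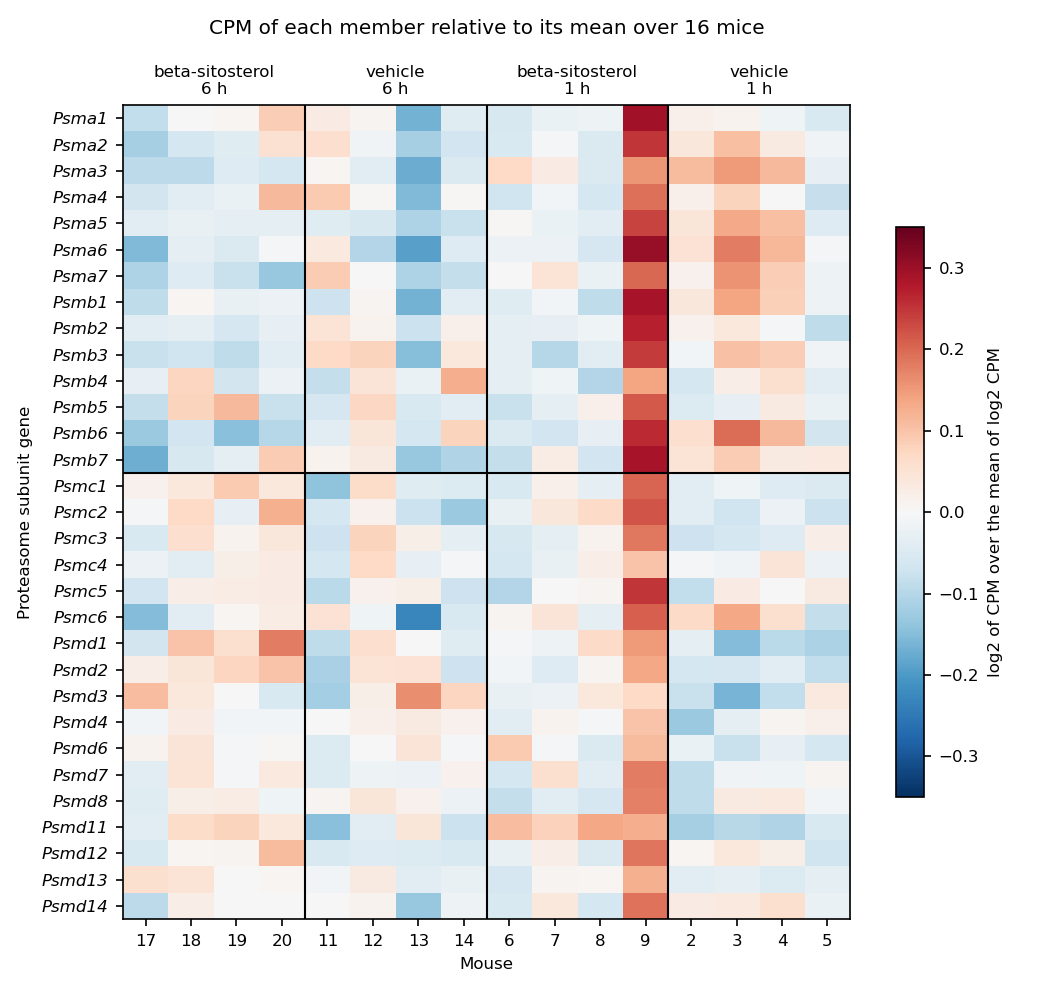
Log2 CPM of each member (rows, with 20S core genes above the line and 19S cap genes below) minus its mean over the 16 mice, for each mouse (columns, by group). Mouse 9 is red in nearly every row, whereas Psmd11 is red in all 4 beta-sitosterol mice at 1 h.

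Other measures of that library were as follows. The slope of log-CPM on log2 transcript length, as a deviation from the mean library, was -0.037 in mouse 9, -0.057 in mouse 3 and between -0.025 and 0.033 in the other 14 mice. Members have short transcripts, with medians of 1162.5 bases in the core and 1636 in the cap, against 2905 over all genes tested. Mitochondrial transcripts took 5.61% of the counts of mouse 9, within the range of 4.30% to 6.96% over all mice. Ttr was at 1034 CPM there, and the summed level of 12 choroid plexus markers at 1806 CPM, within the range of 239.7 to 9957 CPM in the other mice. The part of transcript length or tissue composition in the high values of mouse 9 was not tested.

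Related genes of the pathway were high in mouse 9 in part. The summed level of 5 other 19S proteins was 178 CPM in mouse 9, against 150.5 to 162 CPM in the other 15 mice, and that of 5 assembly chaperones 116 CPM, against 92.9 to 109.7 CPM. The 6 ubiquitin and E1 genes summed to 933 CPM, against 833 to 914 CPM. Mouse 9 lay within the range of the other mice for the immunoproteasome genes (24.4 CPM, against 19.9 to 26.6 CPM), the activators and inhibitor (242 CPM, against 232 to 248 CPM), the regulators of proteasome genes (543 CPM, against 514 to 558 CPM), the shuttles (1065 CPM, against 911 to 1100 CPM) and the p97 group (391 CPM, against 363 to 415 CPM). These sums are set by the abundant genes of each list. Mouse 9 had the highest level of all mice in 2 of 5 other 19S proteins, 3 of 5 assembly chaperones, 2 of 6 ubiquitin and E1 genes, 2 of 5 activators, 2 of 8 shuttles, 1 of 5 genes of the p97 group, 1 of 4 immunoproteasome genes and 0 of 5 regulators.

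**Figure D3:**
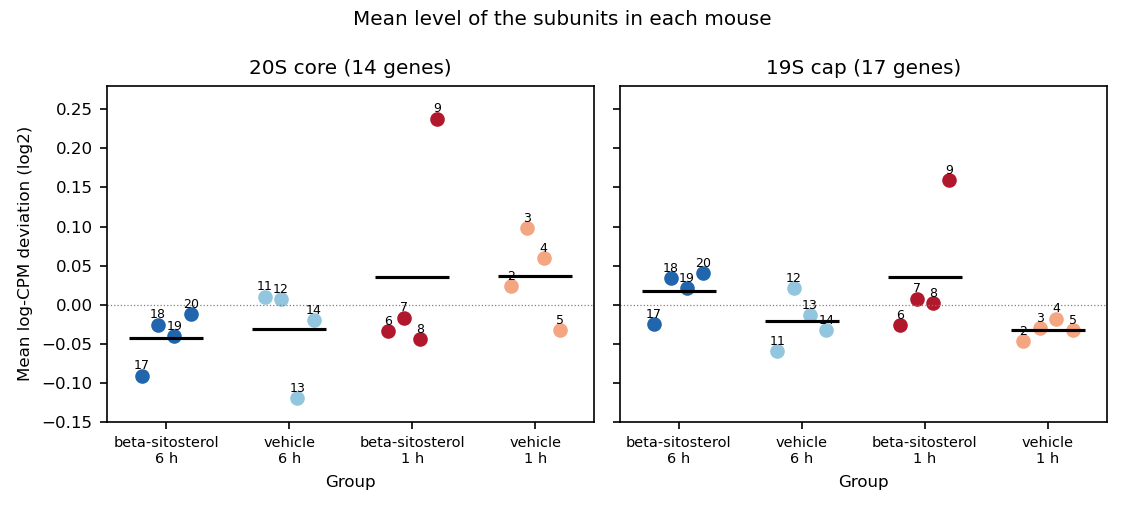
Mean deviation of log2 CPM from the 16-mouse mean over the 14 core genes (left) and the 17 cap genes (right) in each mouse, with mouse numbers and black bars for group means. Mouse 9 stood at 0.24 in the core and 0.16 in the cap, above every other mouse.

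At 6 h none of the 31 members passed the test between beta-sitosterol and vehicle mice (edgeR's quasi-likelihood test, Benjamini-Hochberg adjusted p under 0.05 over 17055 genes), and the percentage of all genes called was 0. The smallest adjusted p among members was 0.437, for Psmd11. No member had an unadjusted p under 0.05 in this fit, against 12.1% of all genes. This count depended on the setting, with 0 members without a low-count filter, 2 with DESeq2 and 5 with the transcript length trend as a covariate. DESeq2 called no member either. The 95% intervals of the 31 log2 fold changes lay between -0.26 and 0.21, so that larger differences fell outside the interval of every member.

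The log2 fold change at 6 h was above 0 in 21 of the 31 members, against 46.1% of all genes. It was above 0 in 7 of 14 core genes, with a median of -0.00096, and in 14 of 17 cap genes, with a median of 0.028. All 6 ATPases and 8 of 11 non-ATPases were above 0, and 4 of 7 alpha and 3 of 7 beta subunits were. The median over all members was 0.016, against -0.014 over all genes. With each library's transcript length trend as a covariate, 13 of 14 core genes were above 0, the members' median was 0.067 and still none was called. That trend itself differed between the 6 h groups, at 0.016 to 0.033 in beta-sitosterol and -0.025 to 0.014 in vehicle mice. The covariate and the treatment can therefore not be fully told apart at 6 h. Without vehicle mouse 13, which had the lowest value of all mice in 9 members, 16 of 31 members and 4 of 14 core genes were above 0, and the median was 0.00075. Without beta-sitosterol mouse 20 the core count was also 4 of 14.

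Groups did not overlap for the alpha subunit Psma5, higher in beta-sitosterol mice, and for the catalytic subunit Psmb6, lower in them, against 8.97% of all genes without overlap in either direction (5.5% higher and 3.47% lower). Psma5 had 43.6, 44.0, 43.8 and 43.8 CPM in the beta-sitosterol mice at 6 h, against 43.5, 43.1, 41.6 and 42.5 CPM in the vehicle mice at 6 h. The beta-sitosterol values of Psma5 spanned less than 1 CPM and all lay just above the vehicle values. Psma5 had 1049 to 1392 reads in a library, and counting error may exceed so narrow a span. The log2 fold change of Psma5 was 0.038 ± 0.057 (SE, adjusted p = 0.822, edgeR), which did not pass.

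**Figure D4:**
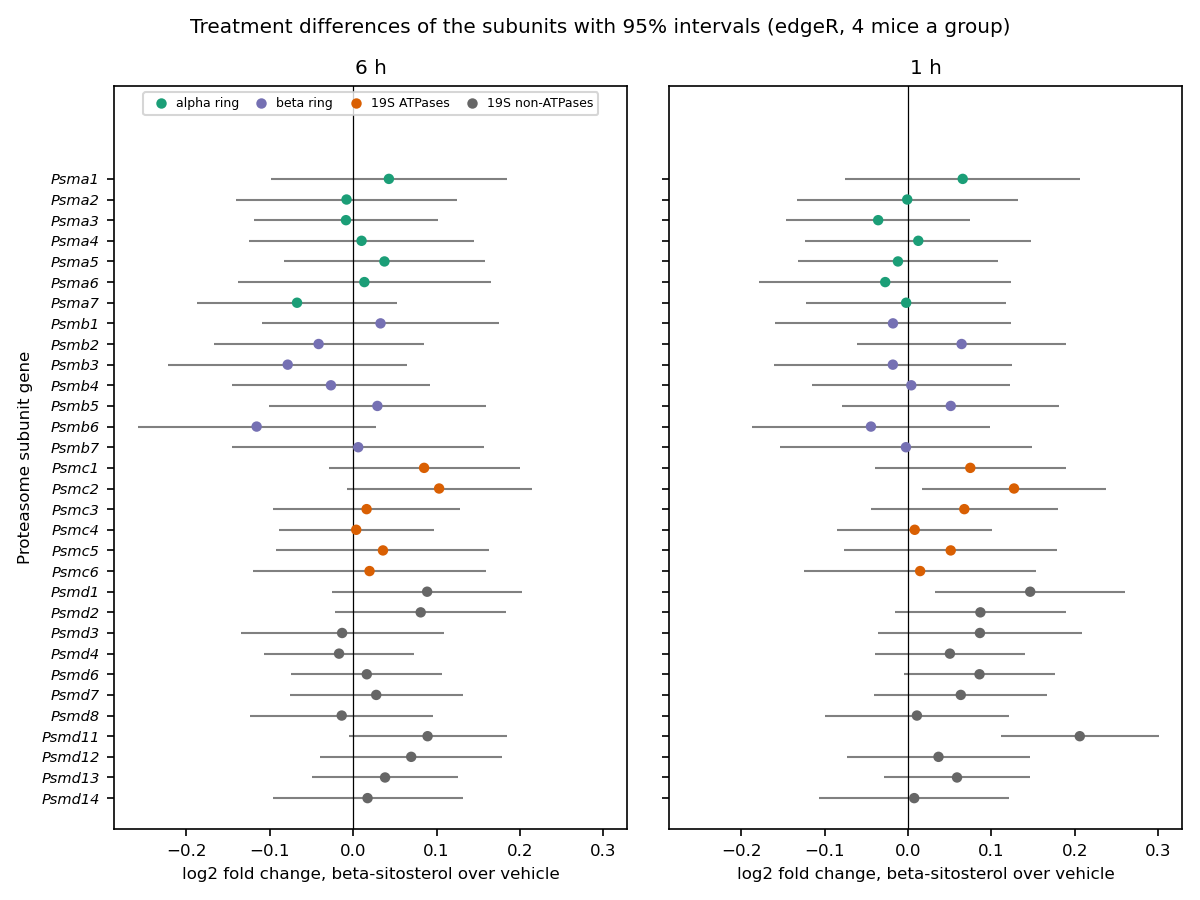
Log2 fold change of each member, beta-sitosterol over vehicle, at 6 h (left) and 1 h (right), with bars for the 95% interval from the edgeR fit (4 mice a group). The intervals at 6 h all crossed 0, and the 1 h values are a description.

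The 3 catalytic beta subunits cleave after hydrophobic residues (Psmb5, chymotrypsin-like), acidic residues (Psmb6, caspase-like) and basic residues (Psmb7, trypsin-like). Psmb6 had 67.6, 70.6, 66.9 and 69.0 CPM in the beta-sitosterol mice at 6 h, against 72.1, 76.1, 70.8 and 78.0 CPM in the vehicle mice at 6 h. The log2 fold change was -0.12 ± 0.068 (SE, adjusted p = 0.500, edgeR), the lowest of all members at 6 h. It had the lowest beta-sitosterol values in mice 17 and 19, and its highest one stood just under the lowest vehicle value. Psmb6 at 1 h had 71.5, 70.5, 72.5 and 88.6 CPM in the beta-sitosterol mice, against 77.0, 84.7, 80.0 and 70.7 CPM in the vehicle mice. The 1 h groups overlapped, and mouse 9 (88.6 CPM) was again apart from its 3 companions.

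Psmb5 had 53.3, 59.6, 61.1 and 53.5 CPM in the beta-sitosterol mice at 6 h, against 54.2, 59.3, 54.4 and 55.0 CPM in the vehicle mice at 6 h. Mice 18 and 19 were high and mice 17 and 20 were low, and the groups overlapped (log2 fold change 0.029 ± 0.062, adjusted p = 0.874, edgeR). Psmb5 at 1 h had 53.5, 55.1, 57.1 and 65.5 CPM in the beta-sitosterol mice, against 54.6, 55.3, 57.7 and 55.5 CPM in the vehicle mice. Mouse 9 held the highest of these values and the other 3 mice of its group lay among or near the vehicle mice.

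Psmb7 had 59.6, 64.4, 65.4 and 71.2 CPM in the beta-sitosterol mice at 6 h, against 67.5, 68.5, 61.1 and 62.3 CPM in the vehicle mice at 6 h. The values of both groups were interspersed, and the log2 fold change was 0.0061 ± 0.072 (adjusted p = 0.981, edgeR). Psmb7 at 1 h had 63.2, 68.2, 63.9 and 81.8 CPM in the beta-sitosterol mice, against 69.3, 71.3, 68.5 and 68.6 CPM in the vehicle mice. Psmb7 (minus strand, chr2:38588036-38644087, GRCm38) shares 405 exonic bases with Nek6 on the opposite strand, and with no strand setting of the counting at hand, reads of both genes cannot be told apart.

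**Figure D5:**
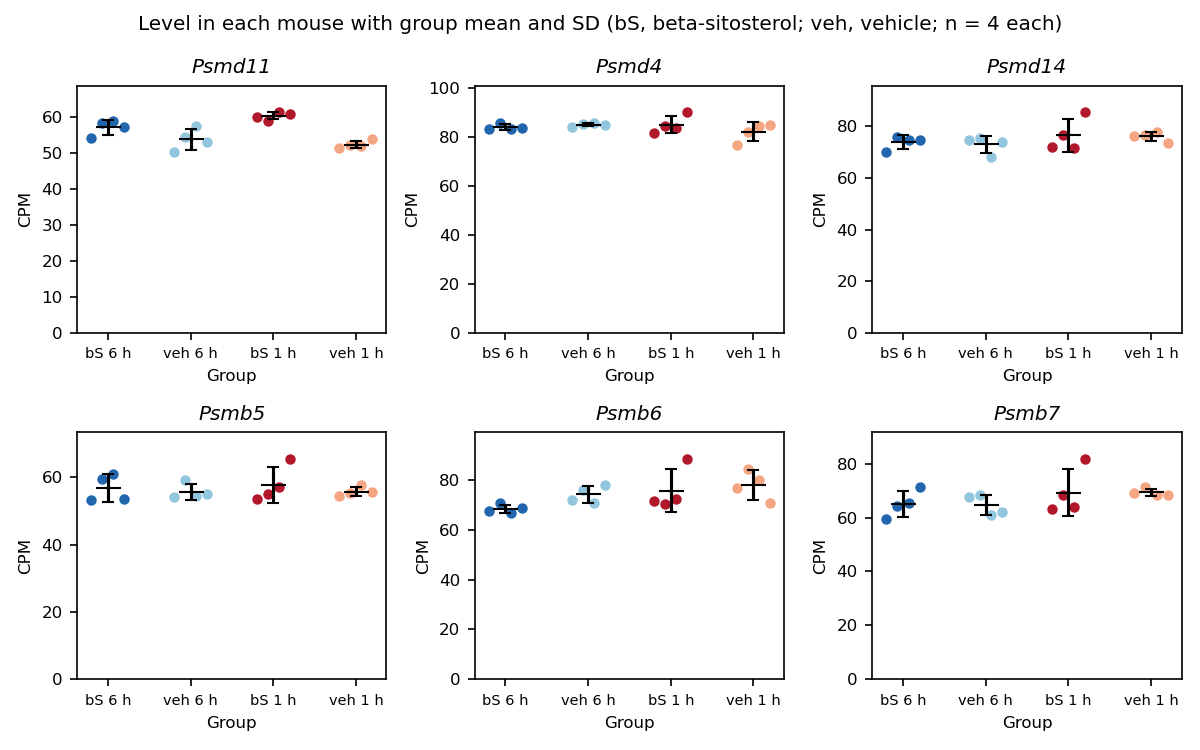
CPM in each mouse (points) with group mean and SD (black) for the lid subunit Psmd11, the ubiquitin receptor Psmd4, the deubiquitinase Psmd14 and the catalytic subunits Psmb5, Psmb6 and Psmb7. Psmd11 shows 4 beta-sitosterol mice at 1 h (59.1 to 61.4 CPM) above all 4 vehicle mice at 1 h (51.5 to 53.9 CPM). Mouse 9 is the highest mouse in Psmd4, Psmd14, Psmb5, Psmb6 and Psmb7.

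The other beta subunits, Psmb1 to Psmb4, have no active site and complete the ring. Psmb4 had 94.6, 102, 92.2 and 95.2 CPM in the beta-sitosterol mice at 6 h, against 91.0, 99.6, 94.9 and 105 CPM in the vehicle mice at 6 h. The groups overlapped (log2 fold change -0.027 ± 0.057). Psmb4 at 1 h had 94.4, 95.4, 89.8 and 106 CPM in the beta-sitosterol mice, against 92.4, 98.0, 100.3 and 94.0 CPM in the vehicle mice. At 1 h mouse 9 was again the highest of the 8 mice. Group means are given with the SD over 4 mice. Psmb1 averaged 87.3 ± 2.42 CPM in beta-sitosterol and 85.4 ± 4.34 CPM in vehicle mice at 6 h, and 92.1 ± 11.4 CPM in beta-sitosterol and 93.2 ± 4.29 CPM in vehicle mice at 1 h. Psmb2 averaged 48.0 ± 0.435 CPM in beta-sitosterol and 49.4 ± 1.79 CPM in vehicle mice at 6 h, and 51.3 ± 5.52 CPM in beta-sitosterol and 49.1 ± 1.85 CPM in vehicle mice at 1 h. Psmb3 averaged 36.8 ± 0.581 CPM in beta-sitosterol and 38.9 ± 2.78 CPM in vehicle mice at 6 h, and 39.2 ± 4.38 CPM in beta-sitosterol and 39.7 ± 1.68 CPM in vehicle mice at 1 h. None of these 4 genes passed the test at 6 h, with log2 fold changes from -0.079 (Psmb3) to 0.033 (Psmb1).

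Alpha subunits form the outer rings, whose tails gate the entry of substrates. Psma1 had 63.1, 66.9, 67.2 and 71.1 CPM in the beta-sitosterol mice at 6 h, against 68.3, 67.4, 59.7 and 65.0 CPM in the vehicle mice at 6 h. Its log2 fold change of 0.043 ± 0.067 was the highest of the core at 6 h (adjusted p = 0.827, edgeR), and the groups overlapped. Psma1 at 1 h had 64.5, 65.9, 66.2 and 82.0 CPM in the beta-sitosterol mice, against 67.8, 67.5, 66.3 and 64.5 CPM in the vehicle mice. Without mouse 9 the 1 h groups of Psma1 lay over each other. Psma7 had 65.5, 68.4, 66.9 and 64.3 CPM in the beta-sitosterol mice at 6 h, against 75.0, 70.7, 65.5 and 66.5 CPM in the vehicle mice at 6 h. Psma7 at 1 h had 70.7, 72.9, 69.4 and 81.1 CPM in the beta-sitosterol mice, against 71.2, 78.7, 74.9 and 69.7 CPM in the vehicle mice. All 4 beta-sitosterol mice had less Psma7 than vehicle mice 11 and 12 at 6 h, and vehicle mice 13 and 14 lay among them, with a log2 fold change of -0.067 ± 0.057 at 6 h. Psma6 had 65.1, 70.7, 69.9 and 72.2 CPM in the beta-sitosterol mice at 6 h, against 74.2, 67.5, 63.5 and 70.2 CPM in the vehicle mice at 6 h. Psma6 at 1 h had 71.4, 71.5, 69.6 and 89.5 CPM in the beta-sitosterol mice, against 75.0, 81.9, 78.5 and 72.1 CPM in the vehicle mice. Mouse 9 was the highest and vehicle 6 h mouse 13 the lowest of all 16 mice in Psma6. Psma2 averaged 67.3 ± 3.36 CPM in beta-sitosterol and 67.6 ± 3.53 CPM in vehicle mice at 6 h, and 71.2 ± 7.51 CPM in beta-sitosterol and 71.2 ± 2.39 CPM in vehicle mice at 1 h. Psma3 averaged 79.7 ± 1.28 CPM in beta-sitosterol and 80.2 ± 4.23 CPM in vehicle mice at 6 h, and 86.8 ± 5.14 CPM in beta-sitosterol and 89.0 ± 4.77 CPM in vehicle mice at 1 h. Psma4 averaged 65.4 ± 3.69 CPM in beta-sitosterol and 65.0 ± 4.55 CPM in vehicle mice at 6 h, and 66.2 ± 5.85 CPM in beta-sitosterol and 65.7 ± 2.98 CPM in vehicle mice at 1 h. Their log2 fold changes at 6 h were -0.0080 (Psma2), -0.0087 (Psma3) and 0.010 (Psma4), all smaller than their SE. The group means of Psma5 were 43.8 ± 0.157 CPM in beta-sitosterol and 42.7 ± 0.833 CPM in vehicle mice at 6 h, and 46.4 ± 4.32 CPM in beta-sitosterol and 46.8 ± 2.53 CPM in vehicle mice at 1 h.

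The 6 ATPases form the ring of the cap that unfolds substrates. Psmc2 had 89.0, 93.9, 87.7 and 97.6 CPM in the beta-sitosterol mice at 6 h, against 85.7, 90.3, 84.9 and 81.7 CPM in the vehicle mice at 6 h. Psmc2 had the highest log2 fold change of the cap at 6 h, 0.10 ± 0.053 (95% interval -0.0077 to 0.21, adjusted p = 0.441, edgeR), and 3 of the 4 vehicle mice lay below the lowest beta-sitosterol mouse. Psmc2 at 1 h had 87.9, 91.9, 93.7 and 104 CPM in the beta-sitosterol mice, against 87.2, 85.2, 88.2 and 84.9 CPM in the vehicle mice. Psmc6 had 60.3, 65.1, 67.3 and 68.3 CPM in the beta-sitosterol mice at 6 h, against 69.4, 66.3, 57.2 and 64.6 CPM in the vehicle mice at 6 h. Psmc6 at 1 h had 67.4, 69.1, 65.5 and 77.4 CPM in the beta-sitosterol mice, against 70.1, 73.6, 69.7 and 63.2 CPM in the vehicle mice. Psmc6 was low in beta-sitosterol mouse 17 and vehicle mouse 13, and the groups overlapped at both times. Psmc1 averaged 117 ± 2.69 CPM in beta-sitosterol and 110.0 ± 6.47 CPM in vehicle mice at 6 h, and 116 ± 9.72 CPM in beta-sitosterol and 110.2 ± 1.14 CPM in vehicle mice at 1 h. Psmc3 averaged 141 ± 4.74 CPM in beta-sitosterol and 139 ± 6.34 CPM in vehicle mice at 6 h, and 142 ± 11.1 CPM in beta-sitosterol and 136 ± 4.16 CPM in vehicle mice at 1 h. Psmc4 averaged 75.4 ± 1.66 CPM in beta-sitosterol and 75.2 ± 2.94 CPM in vehicle mice at 6 h, and 76.0 ± 3.72 CPM in beta-sitosterol and 75.6 ± 1.58 CPM in vehicle mice at 1 h. Psmc4 had close means in all 4 groups. Psmc5 averaged 121 ± 3.88 CPM in beta-sitosterol and 118 ± 4.87 CPM in vehicle mice at 6 h, and 125 ± 13.3 CPM in beta-sitosterol and 120.4 ± 4.48 CPM in vehicle mice at 1 h.

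Among the non-ATPases, Psmd1 and Psmd2 are the large scaffold subunits of the base, and Psmd4 is a receptor for ubiquitin chains. Psmd4 had 83.4, 85.7, 83.4 and 83.5 CPM in the beta-sitosterol mice at 6 h, against 84.1, 85.1, 85.8 and 84.9 CPM in the vehicle mice at 6 h. Its log2 fold change, -0.017 ± 0.043, was the lowest of the cap at 6 h (adjusted p = 0.897, edgeR), and the 8 values lay within 83.4 to 85.8 CPM. Psmd4 at 1 h had 81.7, 84.7, 83.7 and 90.0 CPM in the beta-sitosterol mice, against 76.7, 82.2, 84.5 and 85.1 CPM in the vehicle mice. Psmd2 had 207, 209, 214 and 218 CPM in the beta-sitosterol mice at 6 h, against 188, 210.2, 210.3 and 193 CPM in the vehicle mice at 6 h. Vehicle mice 12 and 13 reached the beta-sitosterol values of Psmd2, and mice 11 and 14 did not. Psmd2 at 1 h had 202, 197, 205 and 223 CPM in the beta-sitosterol mice, against 195, 195, 198 and 191 CPM in the vehicle mice. Psmd1 averaged 125 ± 8.65 CPM in beta-sitosterol and 117 ± 5.14 CPM in vehicle mice at 6 h, and 123 ± 6.53 CPM in beta-sitosterol and 111 ± 3.81 CPM in vehicle mice at 1 h. Psmd1 has exons that overlap Htr2b on the opposite strand and Gm21972 on the same strand.

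Psmd14 is the metalloprotease of the lid that cuts ubiquitin chains off the substrate, and Psmd7 is its inactive partner. Psmd14 had 70.2, 76.1, 74.8 and 74.8 CPM in the beta-sitosterol mice at 6 h, against 74.7, 75.5, 68.2 and 74.0 CPM in the vehicle mice at 6 h. The groups overlapped, with a log2 fold change of 0.017 ± 0.054 (adjusted p = 0.919, edgeR). Psmd14 at 1 h had 72.1, 76.8, 71.8 and 85.5 CPM in the beta-sitosterol mice, against 76.4, 76.6, 77.8 and 73.7 CPM in the vehicle mice. Psmd7 averaged 91.8 ± 2.45 CPM in beta-sitosterol and 90.1 ± 1.65 CPM in vehicle mice at 6 h, and 93.6 ± 7.20 CPM in beta-sitosterol and 89.6 ± 2.64 CPM in vehicle mice at 1 h. The remaining lid subunits Psmd3, Psmd6, Psmd8, Psmd12 and Psmd13 are structural. Psmd3 had 123, 117, 114 and 109.6 CPM in the beta-sitosterol mice at 6 h, against 105, 115, 127 and 119.8 CPM in the vehicle mice at 6 h. Vehicle mouse 13 held the highest and vehicle mouse 11 the lowest 6 h value of Psmd3. Psmd3 at 1 h had 112, 112, 117 and 119 CPM in the beta-sitosterol mice, against 108, 102, 107 and 117 CPM in the vehicle mice. Psmd6 averaged 62.8 ± 0.977 CPM in beta-sitosterol and 62.1 ± 1.69 CPM in vehicle mice at 6 h, and 63.8 ± 3.43 CPM in beta-sitosterol and 60.1 ± 1.06 CPM in vehicle mice at 1 h. Psmd8 averaged 74.6 ± 1.65 CPM in beta-sitosterol and 75.4 ± 1.31 CPM in vehicle mice at 6 h, and 74.9 ± 6.46 CPM in beta-sitosterol and 74.4 ± 2.94 CPM in vehicle mice at 1 h. Psmd12 averaged 58.8 ± 2.84 CPM in beta-sitosterol and 56.0 ± 0.174 CPM in vehicle mice at 6 h, and 59.5 ± 4.57 CPM in beta-sitosterol and 58.0 ± 1.87 CPM in vehicle mice at 1 h. The vehicle values of Psmd12 at 6 h were nearly equal, and beta-sitosterol mouse 17 (55.8 CPM) lay beside them below the other 3 beta-sitosterol mice. Psmd13 averaged 68.6 ± 1.32 CPM in beta-sitosterol and 66.8 ± 1.43 CPM in vehicle mice at 6 h, and 68.3 ± 3.64 CPM in beta-sitosterol and 65.6 ± 0.330 CPM in vehicle mice at 1 h. Psmd13 shares 342 exonic bases with Sirt3 on the opposite strand, and Psmc3 shares 215 with Slc39a13.

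Psmd11 (plus strand, chr11:80428615-80473248, GRCm38) codes for a lid subunit that braces the cap against the core. Psmd11 had 54.4, 58.4, 59.0 and 57.4 CPM in the beta-sitosterol mice at 6 h, against 50.5, 54.5, 57.5 and 53.1 CPM in the vehicle mice at 6 h. Psmd11 at 1 h had 60.3, 59.1, 61.4 and 61.0 CPM in the beta-sitosterol mice, against 51.5, 52.3, 51.9 and 53.9 CPM in the vehicle mice. All 4 beta-sitosterol mice exceeded all 4 vehicle mice at 1 h, and at 6 h the groups overlapped, with vehicle mouse 13 among the beta-sitosterol values. The means were 57.3 ± 2.08 CPM in beta-sitosterol and 53.9 ± 2.94 CPM in vehicle mice at 6 h, and 60.4 ± 1.00 CPM in beta-sitosterol and 52.4 ± 1.03 CPM in vehicle mice at 1 h (SD, n = 4 each). The log2 fold change was 0.089 ± 0.045 at 6 h (SE, 95% interval -0.0054 to 0.18, adjusted p = 0.437, edgeR), which did not pass. At 1 h it was 0.21 ± 0.045 (SE), a value known when the family was taken up and hence a description. Over the planned settings it stayed between 0.19 and 0.22 at 1 h and between 0.059 and 0.12 at 6 h. Adding the counts of a near-identical copy, which was not planned, gave 0.17 at 1 h. The 61.0 CPM of mouse 9 lay within the 59.1 to 61.4 CPM of the other 3 mice of its group.

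Psmd11 has a near-identical copy, A730017L22Rik (minus strand, chr2:130873059-130906396, GRCm38), a processed transcript with 97.9% identity over 1501 bases. Its counts amounted to 22.6% of those of Psmd11, and reads may be split between both. The copy averaged 13.5 ± 1.43 CPM in beta-sitosterol and 11.6 ± 0.603 CPM in vehicle mice at 6 h, and 12.8 ± 1.34 CPM in beta-sitosterol and 12.8 ± 1.52 CPM in vehicle mice at 1 h. With both counts added, the log2 fold change was 0.11 at 6 h (adjusted p = 0.333, edgeR) and 0.17 at 1 h. At 6 h the sum was 69.8, 71.1, 71.3, 71.1 CPM in the 4 beta-sitosterol mice, against 61.3, 65.9, 69.8, 64.7 CPM in the 4 vehicle mice. The summed groups did not overlap, although the lowest beta-sitosterol value and vehicle mouse 13 were equal after rounding. Of all genes 8.97% had no overlap at 6 h in either direction, and 5.5% with beta-sitosterol mice higher. The sum was formed after the data were seen, and it did not pass the test at 6 h.

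The treatment values of the other members at 1 h are likewise a description, with 0 members and 0% of all genes called. The groups did not overlap in 2 members, Psmd1 and Psmd11, both higher in beta-sitosterol mice, against 4.99% of all genes in either direction and 3.04% in that direction. The log2 fold change was above 0 in 22 of 31 members (5 of 14 core genes and 17 of 17 cap genes), against 48.7% of all genes. Medians were -0.0024 in the core, 0.063 in the cap and -0.0039 over all genes. These counts moved with single mice. Without mouse 9, 11 of 31 members were above 0, with 0 of 14 core genes (median -0.075) and 11 of 17 cap genes (median 0.015). The core count was 12 of 14 without vehicle mouse 3, 11 without beta-sitosterol mouse 6 or mouse 8, and 10 without mouse 7. With the transcript length trend as a covariate, all 14 core genes and all 17 cap genes were above 0. The extremes of the core were Psma1 (0.066) and Psmb6 (-0.045), and those of the cap Psmd11 (0.21) and Psmd14 (0.0074).

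Averaged over both times, 23 of 31 members were above 0 (7 of 14 in the core and 16 of 17 in the cap), against 46.1% of all genes, and none was called, against 0.0762% of all genes. Psmd11 was the nearest, with a log2 fold change of 0.15. Without mouse 9 the count was 15 of 31, with 2 of 14 core genes, and the members' median was -0.0093 in place of 0.017. The core count was also 2 of 14 without vehicle 1 h mouse 5, and 3 of 14 without vehicle 6 h mouse 13. With the filter at a mean of 5 CPM, 17 of 31 members and 3 of 14 core genes were above 0. With the transcript length trend as a covariate, 31 of 31 members were. The treatment difference at 6 h minus that at 1 h was above 0 in 9 of 31 members, against 46.8% of all genes, with -0.12 for Psmd11, and no member or other gene was called (0%). Without mouse 9 it was above 0 in 24 of 31 members (12 of 14 core genes), with a median of 0.033 in place of -0.022, and without beta-sitosterol 6 h mouse 17 in 16 of 31.

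Between 6 h and 1 h within each treatment, no member and 0% of all genes passed the test. Both comparisons hold the 1 h mice, and each shares its samples with the treatment comparisons above. In vehicle mice the log2 fold change was below 0 in 12 of 14 core genes, all 7 alpha subunits among them, with a median of -0.074. It was above 0 in 10 of 17 cap genes, with a median of 0.019, and in 51.3% of all genes. Psma3, Psma5 and Psma6 had an unadjusted p under 0.05, which 10.6% of all genes had. The smallest adjusted p was 0.357 (Psma3, log2 fold change -0.15 ± 0.053, edgeR). No member had separate groups, against 4.81% of all genes. Psma6 had the lowest core value, -0.16, and Psmb4 the highest, 0.023. The extremes of the cap were Psmc6 (-0.10) and Psmd3 (0.11). Without vehicle 6 h mouse 13 the core median was -0.049, with 6 of 14 core genes above 0. With the transcript length trend as a covariate it was -0.027, also with 6 of 14 above 0, and without vehicle 1 h mouse 3 it was -0.042.

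In beta-sitosterol mice 5 of 31 members were above 0 at 6 h relative to 1 h, against 46.8% of all genes, and 0 of 14 core genes, with a core median of -0.085. Psma3, Psma7 and Psmb6 had an unadjusted p under 0.05, against 6.97% of all genes. The groups did not overlap in Psma7 and Psmd11, both lower at 6 h, against 5.28% of all genes in either direction and 2.67% in that direction. The 1 h values of Psmd11 were known when the family was taken up, so its separation here is a description. Psma7 had the lowest core value (-0.15 ± 0.057, adjusted p = 0.650, edgeR) and Psmb4 the highest (-0.0080), and in the cap these were Psmc6 (-0.099) and Psmd2 (0.037). Without mouse 9, 21 of 31 members and 6 of 14 core genes were above 0, and the median of the members turned to 0.015. With the transcript length covariate the core median was -0.022, with 3 of 14 above 0.

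The other genes of the pathway were described from 8 lists with 45 genes, of which 43 were tested (Psma8 had too few counts and Paaf1 was not matched), and none was called in any of the 6 comparisons. Of all genes 0.0762% were called for the mean of both times and 0% in each other comparison. At 6 h the log2 fold change was above 0 in 26 of 43 genes, against 46.1% of all genes. At 1 h it was above 0 in 29 of 43, against 48.7%. A list of 8 genes held shuttles, which carry ubiquitinated proteins to the cap, with proteasome-associated deubiquitinases and a ligase. All 8 were above 0 at 6 h, with a median of 0.096, against the -0.014 of all genes. Their summed level was 1052 to 1100 CPM in beta-sitosterol mice and 911 to 1054 CPM in vehicle mice at 6 h, and the ranges overlapped at their ends. Usp14, the deubiquitinase that sits on the cap, averaged 125 ± 5.12 CPM in beta-sitosterol and 111 ± 8.00 CPM in vehicle mice at 6 h (log2 fold change 0.17 ± 0.052, adjusted p = 0.321, edgeR). It had the smallest p of its list and did not pass.

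The counts by list stand against 46.1% of all genes above 0 at 6 h. In the p97 group, whose ATPase pulls ubiquitinated proteins out of complexes, 4 of 5 genes were above 0 at 6 h. Vcp itself averaged 162 ± 6.38 CPM in beta-sitosterol and 147 ± 11.2 CPM in vehicle mice (log2 fold change 0.14, adjusted p = 0.344, edgeR). Of the 5 regulators of proteasome genes 2 were above 0 at 6 h. Nfe2l1 averaged 338 CPM in both groups, and Ddi2, the protease that activates it, 70.0 ± 3.66 CPM in beta-sitosterol and 61.9 ± 4.19 CPM in vehicle mice (log2 fold change 0.18, adjusted p = 0.329, edgeR). Of the 6 ubiquitin and E1 genes 4 were above 0, and the smallest p was that of the activating enzyme Uba6 (24.6 ± 2.37 CPM in beta-sitosterol and 22.4 ± 1.81 CPM in vehicle mice). Among other 19S proteins 1 of 5 was above 0, the assembly chaperone Psmd5 with 56.8 ± 3.37 CPM in beta-sitosterol and 52.2 ± 3.22 CPM in vehicle mice. Activators and inhibitor had 2 of 5 above 0, and the smallest p was that of the activator Psme3 (log2 fold change 0.096, adjusted p = 0.407, edgeR). Assembly chaperones had 2 of 5 above 0, and the smallest p belonged to Psmg4, which was lower in mean level (4.20 ± 0.591 CPM in beta-sitosterol and 4.72 ± 0.617 CPM in vehicle mice). The immunoproteasome and tissue-specific core genes were low, from 0.510 CPM for the thymic subunit Psmb11 to 18.9 CPM for Psmb10 as means over all mice, and 3 of 4 were above 0. Psmb11 had the smallest p of these at 6 h (0.641 ± 0.162 CPM in beta-sitosterol and 0.411 ± 0.132 CPM in vehicle mice).

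Markers of cell types lay beside these values as follows, with none of the 62 markers called in any comparison and none at 0 in its mean level. At 6 h, 6 of 7 markers of hippocampal neurons were above 0, against 0 of 12 of choroid plexus, 0 of 7 of astrocytes, 0 of 6 of oligodendrocytes and 0 of 6 of microglia. Of the other lists, 3 of 5 interneuron, 5 of 5 red blood cell and 1 of 4 mural and meningeal markers were above 0. For ependyma and endothelium the counts were 0 of 4 each, and for oligodendrocyte precursors 0 of 2. All lists together had 15 of 62 markers above 0, against 46.1% of all genes. Summed levels in beta-sitosterol and vehicle mice at 6 h were 7392 to 8529 and 7583 to 8259 CPM for hippocampal neurons, 283 to 6665 and 257 to 5441 CPM for choroid plexus, 2283 to 2512 and 2462 to 2718 CPM for astrocytes, and 217 to 254 and 241 to 274 CPM for microglia. With the choroid plexus score as a covariate, 23 of 31 members were above 0 at 6 h and none was called. The part of the other cell types in the small differences of the subunits was not tested.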

How the data were processed

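RNA of 16 hippocampi was sequenced from TruSeq mRNA libraries. The deposited tables hold raw read counts per gene and normalized signal, which the authors made by dividing the counts by a factor per library (0.853 to 1.11, from the values). CASAVA 1.8.2, cutadapt, TopHat2 2.0.10, HTSeq 0.6.1p1, DESeq2 1.6.3 and GRCm38 are named in the submitters' processing notes, with no strand setting or annotation release stated there. Reads that a near-identical copy or an overlapping gene shares with a member (7 members have exons overlapping a gene on the opposite strand) may therefore be counted for either or lost.

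Counts were tested with edgeR 4.0.16 (R 4.3.3; TMM scaling, filterByExpr with a minimum count of 10 and a minimum total of 15, robust quasi-likelihood fit of all 16 libraries with 12 residual degrees of freedom), adjusted by Benjamini-Hochberg over 17055 genes that held 99.9% of the reads. The common coefficient of biological variation was 0.0988. Nothing in the labels used here gives more than separate mice as replicates. Alternatives were RLE scaling, no filter, a mean of 5 CPM, DESeq2 1.42.0, limma 3.58.1 on log2 of the normalized signal plus 1, fits of the compared groups alone, a choroid plexus score or the transcript length trend as covariate, leaving out libraries with Ttr under 100 CPM, and leaving out each mouse. Symbols (46091 IDs matched) and lengths came from GENCODE M21, promoters from RefSeq, and copies from BLAST 2.17.0 (95% identity over 200 bases). The model was tested on simulated data, where recovery was required only of changes larger than any of the members' differences. No recovery rate for differences as small as those of the members is given here.

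The members and gene lists were chosen with earlier results of these data known. Every member is named with its group levels. Values in each mouse are given for Psmd11, the catalytic subunits, Psmd4, Psmd14 and the extremes of the core and cap in the treatment comparisons at 6 h and 1 h and in both time comparisons, and in each pathway list the gene with the smallest p at 6 h is named. Psma5 in each mouse, Nfe2l1 and Psmb10 were added after their values were seen. Adding the counts of the Psmd11 copy was also chosen after seeing the data.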

Additional observations from a re-analysis of the deposited data

Results flagged for a closer look

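Within each group of 4 mice, the gap of the highest or lowest mouse to its neighbour was compared with the group's range, and values past Dixon's limit of 0.829 are given here. Chance marks about 1 in 20 groups, and 10 of 124 pairs of member and group were marked, 8 of them for a high value in mouse 9 (beta-sitosterol, 1 h). These 8 genes share 1 library and are not independent.

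In the alpha ring, mouse 9 had 82.0 CPM of Psma1 (64.5 to 66.2 in the other 3 mice of its group), 82.3 CPM of Psma2 (66.6 to 69.0), 52.8 CPM of Psma5 (43.7 to 45.0) and 89.5 CPM of Psma6 (69.6 to 71.5). In the beta ring it had 59.6 CPM of Psmb2 (48.3 to 48.9), 45.7 CPM of Psmb3 (36.0 to 37.6) and 88.6 CPM of the catalytic subunit Psmb6 (70.5 to 72.5). In the lid it had 84.5 CPM of Psmd8 (70.6 to 72.8). The mean deviation from the 16-mouse mean was 0.195 on the log2 scale over all members and 0.238 over the core genes in mouse 9, apart from the other 3 mice of its group (-0.030 to -0.0034 and -0.045 to -0.017).

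Among beta-sitosterol mice at 6 h, mouse 17 was low in the ATPase Psmc5, with 115 CPM against 123 to 124 CPM in the other 3. Mouse 18 was high in the ubiquitin receptor Psmd4, with 85.7 CPM against 83.4 to 83.5 CPM.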

How the results depend on the processing

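At 6 h, over time within each treatment and in the difference of the treatment effects, 0 members were called in every setting run. The counts at 1 h and for the mean of both times rest on values known when the family was chosen, and they are given as a description of the settings. At 1 h 1 member (Psmd11) was called by DESeq2 and 0 in the other settings. For the mean of both times, 1 member (Psmd11) was called with RLE scaling, the strict filter, limma-trend on the normalized signal and the choroid plexus covariate, and DESeq2 called 3 (Psmc2, Psmd1 and Psmd11). Of all genes, those settings called 117 (RLE), 497 (strict filter), 103 (limma-trend), 452 (covariate) and 1256 (DESeq2), against 13 with the settings of the report. Leaving out 1 mouse gave 0 to 1 calls there, with 1 without beta-sitosterol 1 h mouse 6, vehicle 1 h mouse 5 or beta-sitosterol 6 h mouse 17, where 285, 1206 and 61 of all genes were called. DESeq2 called 68 of all genes at 6 h and 29 at 1 h, against 0 by edgeR at both. The cause of these differences was not tested.

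The members' median log2 fold change at 1 h lay between -0.023 (without mouse 9) and 0.057 when 1 mouse was left out. At 6 h it lay between 0.00075 (without vehicle mouse 13) and 0.040, and between 0.0094 and 0.067 in the other settings. When 1 mouse was left out, the median over time lay between -0.069 and 0.015 in beta-sitosterol mice, turning above 0 without mouse 9, and between -0.039 and 0.0065 in vehicle mice, turning above 0 without vehicle 6 h mouse 13. In vehicle mice it was also above 0 with the transcript length covariate (0.013). The median of the mean of both times lay between -0.0093 and 0.029 and that of the difference between -0.051 and 0.033 when 1 mouse was left out. Fits of the compared groups alone give no value for the mean of both times or the difference. No paired analysis was possible because each mouse number occurs in 1 group only.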
